A study of Homo sapiens with 14 samples.

Results

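The response of LNCaP-abl cells to dilazep was described over 11193 genes, out of 11983 genes tested on all 14 arrays of the series. A gene counted as a member when its probe had a detection p-value under 0.05 on at least 2 of the 7 LNCaP-abl arrays. The other 790 tested genes had a probe detected on fewer than 2 of them. Gene symbols were at hand only for probes of the authors' processed table, so genes without a probe there were not tested. LNCaP-abl is a subline of LNCaP, a human prostate cancer line, that was adapted to growth without androgen, and it was kept in phenol-red-free RPMI-1640 with 10% charcoal-stripped serum. The 3 dilazep arrays came from cells given 50 µM dilazep for 48 h, and the controls were 2 arrays of cells given H2O and 2 arrays of cells given DMSO. The labels name no engineered allele, and androgen-poor serum was shared by all 3 groups. LNCaP, used only for the comparison of lines, was kept in 10% fetal bovine serum and had 3 dilazep, 2 H2O and 2 DMSO arrays.

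Limits of these groups bear on every result. The labels do not say which vehicle dilazep was dissolved in, so both vehicles counted equally. For the controls the labels' treatment field speaks of bufalin in place of dilazep, so they may come from another experiment, and a difference between experiments cannot be told apart from dilazep. Nothing in the labels says that replicates were separate cultures, so the spread behind the p-values may be technical only. LNCaP-abl is 1 subline, and in bulk RNA fewer cells of a kind and less RNA per cell cannot be told apart.

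As background, dilazep is a vasodilator that blocks the equilibrative nucleoside transporters, through which cells take up adenosine and other nucleosides, and GATA2 is a zinc finger transcription factor active in prostate cells. Microtubules, the folate cycle, purine synthesis and histone deposition all serve dividing cells, whereas endosomes, vesicle coats and lipid enzymes serve the traffic and make-up of membranes. Many genes of dividing cells have promoters with CCAAT boxes, bound by NF-Y, E2F sites, or the element called CHR (cell cycle genes homology region), and the CLEAR element is bound by TFEB, a regulator of lysosome genes.

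The promoters of 8 members show the motifs compared further on. They were chosen for the motifs they hold and for their large changes, and the sequences are those of RefSeq on GRCh38.p14, 250 bases that end just before the gene's start, 5′ to 3′ on the gene's strand. The first 5 belong to genes that fell. In HJURP, PSRC1 and CKS2 the capitals mark CCAAT boxes and the CHR (TTTGAA or TTCGAA, on either strand), and in DTL and MND1 they mark CCAAT boxes (DTL alone) and an E2F site. The last 3 belong to genes that rose. In S100P the capitals mark a C/EBP-ATF element (TGATGNAA) and a TATA box, in SDCBP2 an AP-1 site (TGACTCA or TGAGTCA), and in DUSP1 a CRE, a CLEAR element and a TATA box.
HJURP, on the minus strand of chr2:233854536-233854785: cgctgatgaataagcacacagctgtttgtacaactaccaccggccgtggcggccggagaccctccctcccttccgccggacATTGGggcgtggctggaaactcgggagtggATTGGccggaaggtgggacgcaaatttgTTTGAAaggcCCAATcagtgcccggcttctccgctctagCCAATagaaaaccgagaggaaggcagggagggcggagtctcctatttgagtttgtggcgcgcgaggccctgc
PSRC1, on the minus strand of chr1:109283146-109283395: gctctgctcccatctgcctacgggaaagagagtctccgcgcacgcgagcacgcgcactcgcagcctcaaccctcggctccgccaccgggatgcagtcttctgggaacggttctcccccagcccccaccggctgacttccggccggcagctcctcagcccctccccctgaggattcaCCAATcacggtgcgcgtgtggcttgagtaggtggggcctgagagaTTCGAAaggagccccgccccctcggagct
CKS2, on the plus strand of chr9:89310945-89311194: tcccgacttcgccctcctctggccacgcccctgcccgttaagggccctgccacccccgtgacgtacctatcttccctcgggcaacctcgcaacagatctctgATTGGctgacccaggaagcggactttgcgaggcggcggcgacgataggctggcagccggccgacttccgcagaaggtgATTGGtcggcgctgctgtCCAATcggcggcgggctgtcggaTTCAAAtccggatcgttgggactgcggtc
DTL, on the plus strand of chr1:212035498-212035747: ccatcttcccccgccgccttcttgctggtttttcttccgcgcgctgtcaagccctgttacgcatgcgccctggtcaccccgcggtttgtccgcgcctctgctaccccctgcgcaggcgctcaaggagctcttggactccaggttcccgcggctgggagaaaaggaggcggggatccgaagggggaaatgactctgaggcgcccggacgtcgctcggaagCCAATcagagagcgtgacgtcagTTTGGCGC
MND1, on the plus strand of chr4:153344438-153344687: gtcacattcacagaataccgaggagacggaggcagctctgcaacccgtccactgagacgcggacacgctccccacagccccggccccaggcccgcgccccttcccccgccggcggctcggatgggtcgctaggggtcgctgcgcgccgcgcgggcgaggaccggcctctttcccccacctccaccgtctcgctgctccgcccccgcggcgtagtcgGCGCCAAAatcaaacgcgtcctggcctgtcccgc
S100P, on the plus strand of chr4:6693628-6693877: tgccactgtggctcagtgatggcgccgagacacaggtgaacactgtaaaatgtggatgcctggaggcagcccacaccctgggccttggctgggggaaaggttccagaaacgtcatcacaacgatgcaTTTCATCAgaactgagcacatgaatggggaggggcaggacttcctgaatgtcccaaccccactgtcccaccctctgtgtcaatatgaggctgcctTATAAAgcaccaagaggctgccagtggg
SDCBP2, on the minus strand of chr20:1329140-1329389: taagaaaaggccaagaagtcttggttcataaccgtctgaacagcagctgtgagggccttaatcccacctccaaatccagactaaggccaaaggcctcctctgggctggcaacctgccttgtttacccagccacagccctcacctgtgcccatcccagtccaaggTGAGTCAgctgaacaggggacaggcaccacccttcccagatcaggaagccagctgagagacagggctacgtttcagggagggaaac
DUSP1, on the minus strand of chr5:172771196-172771445: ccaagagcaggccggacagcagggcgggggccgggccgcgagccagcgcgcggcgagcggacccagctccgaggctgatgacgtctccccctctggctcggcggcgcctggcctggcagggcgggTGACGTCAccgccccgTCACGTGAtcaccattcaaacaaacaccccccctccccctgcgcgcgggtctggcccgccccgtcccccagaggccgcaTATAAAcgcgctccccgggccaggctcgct

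Array medians in LNCaP-abl lay between 144.6 and 154.6 intensity units, and 17925 to 19196 probes were detected per array. Levels below are log2 intensities after background correction and quantile normalization, and a change is the dilazep mean minus the control value, which averages the H2O mean with the DMSO mean. The first principal component of the 7 arrays held 83.0% of the variance, with the 4 controls between -36.2 and -35.0 and the 3 dilazep arrays between 46.7 and 48.2. The second held 4.71% and set DMSO replicate 1 (-18.8) apart from the other controls. The median SD of a gene within a group was 0.115 for H2O, 0.134 for DMSO and 0.125 for dilazep. Of 16 luminal prostate markers, 14 were tested, all 14 were detected on the 4 controls, and 12 were detected on all 3 dilazep arrays. KRT19 and KLK3 were the other 2. The summed level of the 14 lay between 14.98 and 15.08 in controls and between 15.26 and 15.32 with dilazep. It is the log2 of summed intensities, so the brightest genes weigh most. Of the 14, 6 were called higher, by 0.62 (TMPRSS2) or less. Another 6 were called lower, among them KLK2 (-2.39), ACP3 (-1.36) and HOXB13 (-1.15). Markers of basal and mesenchymal cells were tested for 3 of 10 genes (TP63 and KRT5 were not), with a summed level of 8.04 to 8.16 in controls and 8.23 to 8.50 with dilazep and TWIST1 detected on no array. Neuroendocrine markers were tested for 4 of 10 (SYP was not), at 10.55 to 10.92 and 10.92 to 11.18. Of these, 2 were called higher and 1 lower, SYT4, which was at least 6.25-fold lower with dilazep. Immune markers were tested for 2 of 10 (PTPRC was not), at 9.09 to 9.76 and 9.95 to 10.11. Fibroblast and endothelial markers were each tested for 1 of 10, COL1A1 at 4.91 to 5.84 and 5.21 to 5.49, and VWF at 5.70 to 5.94 and 4.59 to 5.32. The part of these markers in the results was not tested.

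With the main processing, more members were called with dilazep than were not. Of the 11193 members, 3240 were called higher and 2774 lower at an adjusted p under 0.05 in limma, which is 53.7% of them, against 50.5% of all 11983 genes tested (27.2% higher and 23.3% lower). That majority did not hold against H2O alone (5311 of 11193) or DMSO alone (5237 of 11193). Nor did it hold with 1 dilazep array left out (5410 of 11084, 5426 of 11051 and 5429 of 11069). Most changes were small, with a median of 0.66 among those called higher and -0.68 among those called lower. The tail was longer downwards. At a change of 1 or more, 669 members were higher and 778 lower (5.58% and 6.49% of genes tested). These counts were 278 and 396 without background correction, 201 and 315 with the authors' processed values and 431 and 1037 with median scaling. At 2 or more the counts were 80 and 245, at 3 or more 10 and 107, and at 4 or more 1 and 34. The median over all members was 0.05, or -0.10 with median scaling. Quantile normalization gives all arrays the same distribution, so a median near 0 is largely set by the processing.

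**Figure D1:**
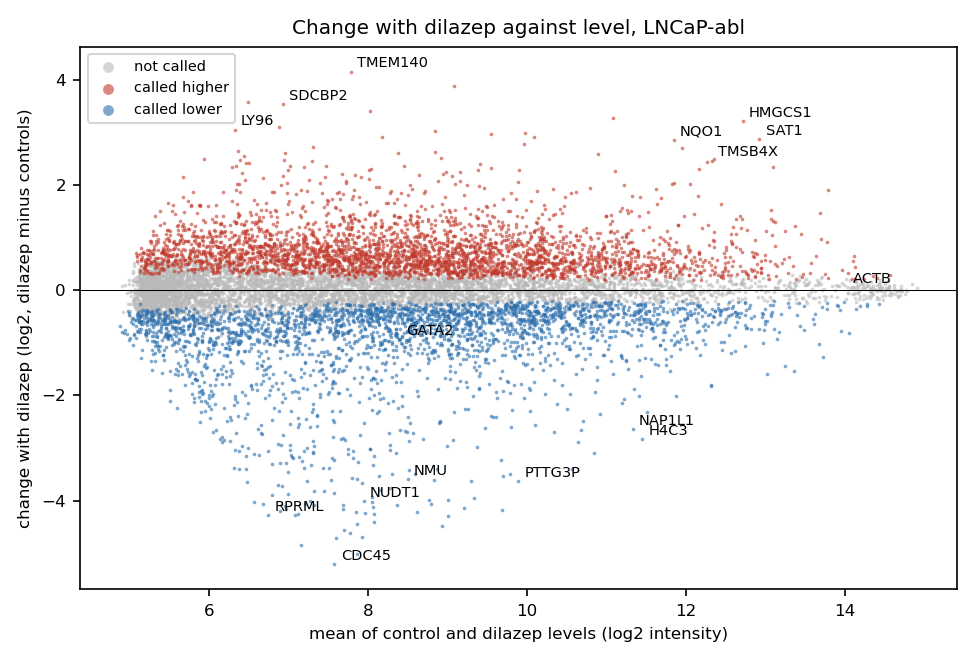
Change with dilazep (log2, vertical axis) against mean level (log2 intensity, horizontal axis) for each member gene outside the Y chromosome, with genes called higher in red, called lower in blue and not called in grey. Among labelled genes measured on both sides, TMEM140 sits at 4.15, NUDT1 at -4.00 and ACTB at 0.06, and the points of genes not above background on one side (CDC45, RPRML and LY96 among those labelled) are fitted values and no measured size.

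Dim genes were called less often. When members were split by level into 10 equal bins, 23.5% were called in the dimmest bin, with a median SE of 0.19, and 66.9% in bins 8 and 9, with a median SE of 0.10. For 867 of all members (7.75%), called or not, the 95% interval of the change lay wholly within 0.32 of 0. For most of the 5179 members not called, a change of 0.32 was therefore not excluded. Dilazep and control arrays did not overlap in 6253 members (55.9%), and 5641 of the 6014 called members were among these. By chromosome, 48.3% (chromosome 7) to 58.6% (chromosome 12) of the members of each numbered chromosome were called.

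The vehicles differed little beside dilazep. No member was called between DMSO and H2O in limma (0% of genes tested), and 407 members (3.64%) had an unadjusted p under 0.05. The median size of the difference between vehicles was 0.10, against 0.38 for dilazep. Against H2O alone 5311 members were called and against DMSO alone 5237, with 4600 called against both. These comparisons share the dilazep arrays.

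The textbook pathways (sterol synthesis, the cell cycle, stress responses and the like) held 591 members. With these and genes tied to sex chromosome dosage set aside, 10582 members remained, of which 3059 were called higher and 2452 lower. Among those with a change of 1 or more, 589 rose and 537 fell. At 2 or more, 55 of the 80 rises and 78 of the 245 falls were among them.

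Among genes outside those lists, the largest rises were a mix of surface, signalling and detoxifying proteins. TMEM140, a transmembrane protein, had levels of 5.77 and 5.43 with H2O, 5.68 and 5.96 with DMSO, and 9.92, 9.91 and 9.73 with dilazep. All 3 dilazep arrays stood 3.77 above the highest control. It rose by 4.15 (SE 0.12, adjusted p = 8.7e-11). SAT1 acetylates spermidine and spermine for breakdown and was already abundant, at 11.37 and 11.51 with H2O and 11.49 and 11.57 with DMSO. With dilazep it reached 14.38, 14.40 and 14.30, without overlap, a rise of 2.87 (SE 0.08). NQO1, a quinone reductase, went from 10.14 to 10.58 in the 4 controls to 13.18, 13.38 and 13.27, a rise of 2.86 (SE 0.10, adjusted p = 6.1e-10), and a second probe gave 2.87.

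Several of these genes were not above background on the control arrays. LY96, which binds lipopolysaccharide together with the receptor TLR4, was not above background on any control (4.76, 4.51, 5.16 and 4.74) and was measured at 7.80, 7.87 and 7.87 with dilazep. The groups did not overlap, and LY96 was at least 5.83-fold higher with dilazep (adjusted p = 1.1e-09). Such bounds set the dilazep mean against, on each control array, whichever is greater, the gene's measured value or the dimmest detected probe. ANKRD1, an ankyrin repeat protein known as a YAP target, was at least 5.18-fold higher, and RCAN2, a regulator of calcineurin, at least 3.65-fold higher.

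In all, 74 members were detected on every dilazep array and on no control, and 71 of them were called higher. Besides these, the matrix protease MMP10 (at least 7.83-fold), the mitochondrial ATP-Mg and phosphate carrier SLC25A24 (at least 2.71-fold), the transporter SLC22A15 (at least 2.68-fold), PELI2, an E3 ubiquitin ligase of immune receptor signalling (at least 2.60-fold), the membrane traffic switch RAB39B (at least 2.58-fold), the protease inhibitor SERPINB8 (at least 2.42-fold) and FOS, a subunit of AP-1 (at least 2.42-fold), had the largest bounds. A second probe of SERPINB8 was also called, at 1.21. The converse pattern was more common: 186 members were detected on all controls and on no dilazep array, of which 183 were called lower.

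S100P, a small calcium-binding protein, had levels of 8.11, 8.28, 7.92 and 7.96 in controls and 10.95, 11.14 and 10.98 with dilazep. No control came within 2.68 of a dilazep array, and it rose by 2.96 (SE 0.10). TNFRSF12A, the receptor for the cytokine TWEAK, rose by 2.63, and FERMT2 (kindlin-2), an activator of integrins, by 2.48. HOPX, a homeodomain protein that does not bind DNA, rose by 2.54 from controls detected on 2 of 4 arrays, and ENPP5, of the ectonucleotide pyrophosphatase family, by 2.51. SLC67A1 (2.61) and the defensin DEFB126 (2.47) completed the 15 largest rises together with SDCBP2, a PDZ-domain scaffold, and HBEGF. The probes of SDCBP2 disagreed in size: the main one gave 3.53, others 2.12 and 1.45, and another -0.15, which was not called.

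**Figure D2:**
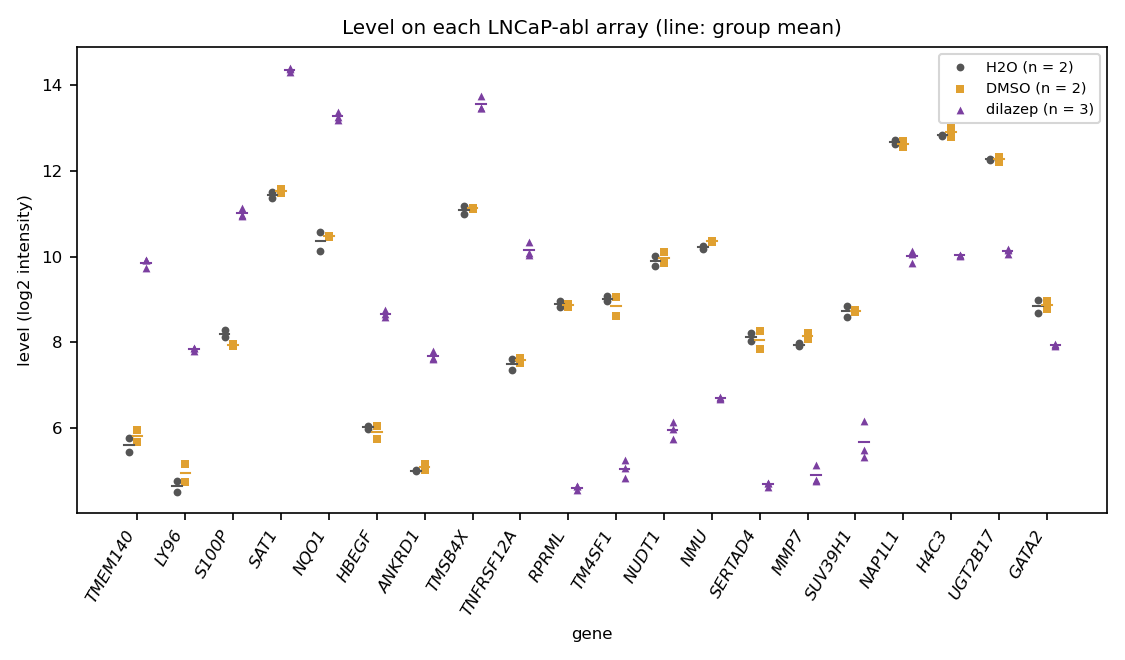
Level (log2 intensity, vertical axis) of 20 genes on each LNCaP-abl array, with circles for H2O (n = 2), squares for DMSO (n = 2), triangles for dilazep (n = 3) and a line at each group mean. In every gene drawn the dilazep arrays lie wholly above or wholly below the 4 controls, by at least 0.74 (GATA2).

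The largest falls outside the textbook lists included secreted factors, DNA repair enzymes and chromatin genes. RPRML, a relative of the cell cycle gene reprimo, had levels of 8.82, 8.97, 8.90 and 8.82 in controls and was not above background on any dilazep array. The groups did not overlap, and RPRML was at least 11.5-fold lower (adjusted p = 3.6e-11). TM4SF1, a membrane protein, had control levels of 9.07, 8.97, 8.62 and 9.05 and was above background on no dilazep array. The groups did not overlap, and it was called lower (adjusted p = 4.9e-10).

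NMU, the neuropeptide neuromedin U, fell by 3.59 on the log2 scale (SE 0.08), from 10.18 and 10.25 with H2O and 10.36 and 10.35 with DMSO to 6.72, 6.70 and 6.68. The 3 dilazep arrays lay within 0.04 of each other and 3.47 below every control. NUDT1, which clears oxidised nucleotides before they enter DNA, fell by 4.00 on its main probe and by 0.95 on a second one, both called. PHLDA1, a pleckstrin-domain protein, likewise fell by 3.62 and by 1.26. The DNA polymerase theta gene POLQ fell by 3.57, from 9.33 to 9.77 in controls to 5.53, 6.22 and 6.29. It changed by -0.27 in LNCaP, and the difference between lines was called (-3.30, adjusted p = 1.6e-06).

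DDIAS, a gene known as induced by DNA damage, fell by 3.59, and the spindle protein gene PSRC1, whose promoter is printed above, by 3.10. SERTAD4 was at least 6.62-fold lower, and MMP7, the matrix protease matrilysin, at least 6.47-fold lower, with a second probe of MMP7 at -3.42. The histone H3 lysine 9 methyltransferase gene SUV39H1 fell by 3.06 (SE 0.17), C4orf46 by 3.18 and MNS1 by 3.09. FAM72D was at least 14.6-fold lower and the securin pseudogene PTTG3P fell by 3.63, but both have near-identical copies that can bind the same probe, so which copy changed is uncertain. Other genes lost from all 3 dilazep arrays were PIMREG (at least 14.9-fold lower), FAM83D (at least 12.9-fold), CDC45 (at least 28.5-fold) and AURKB (at least 18.8-fold). HJURP, the chaperone of the centromere histone CENP-A (at least 12.6-fold), and DTL, a ubiquitin ligase adaptor of DNA replication (at least 12.5-fold), were lost as well. The meiotic recombination gene MND1 was at least 14.8-fold lower on its main probe, and a second probe, also called, gave a smaller log2 change of -2.40.

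In the brightest 10% of members, which lie above a level of 11.17, there were 327 rises and 307 falls among 1118 genes. Sterol enzymes took 5 of the 8 largest rises (HMGCS1, MSMO1, TM7SF2, IDI1 and the regulator INSIG1). SAT1, NQO1 and TMSB4X were the others. TMSB4X, which holds free actin, had levels of 11.17, 10.99, 11.14 and 11.11 in controls and 13.76, 13.47 and 13.46 with dilazep, a rise of 2.46 (SE 0.10) without overlap. TMSB4X has close copies elsewhere in the genome.

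Among bright genes that fell, the histone chaperone gene NAP1L1 had levels of 12.63, 12.72, 12.56 and 12.70 in controls and 10.12, 9.86 and 10.06 with dilazep. It fell by 2.64 (SE 0.11), and 2 other probes gave -3.02 and -3.00. The histone H4 gene H4C3 fell by 2.83 (SE 0.30), with dilazep arrays at 10.01 to 10.04 and controls at 12.79 to 13.01, although histone H4 genes are near-identical. CSE1L, which returns importin alpha to the cytoplasm, fell by 1.87. UBE2T, a ubiquitin-conjugating enzyme of cross-link repair, changed by -2.07, CKS2 by -2.31 and PCNA by -2.01, all called. Second probes gave -2.56 for CKS2 and -1.06 for PCNA, both called.

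UGT2B17, which couples androgens to glucuronic acid for excretion, had levels of 12.26, 12.29, 12.32 and 12.22 in controls and 10.07, 10.15 and 10.17 with dilazep. It fell by 2.14 (SE 0.09), with 2 other probes at -2.08 and -2.80, and no array of one group came within 2.05 of the other. GATA2 itself, the factor the series set out to target, had levels of 8.68 and 8.99 with H2O, 8.78 and 8.97 with DMSO, and 7.91, 7.94 and 7.95 with dilazep. It fell by 0.93 (SE 0.10, adjusted p = 9.9e-06). GATA2 changed by 0.06 in LNCaP, and the difference between lines was called (-0.99).

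Gene lists were read against the whole set, in which 28.9% of members rose and 24.8% fell. With median scaling in place of quantile normalization the median of all members was -0.10 in place of 0.05, a shift of -0.15, and rises made up 37.6% of calls, against 53.9% with quantile normalization. List medians are therefore given beside 0.05, and for each list described below the sign was the same under median scaling unless stated.

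Tubulins had the lowest median change of the lists. Of 17 measured tubulin genes, 12 fell and 3 rose, with a median of -1.27. TUBB, a main beta-tubulin, had levels of 11.76, 11.86, 11.84 and 11.82 in controls and 9.76, 9.99 and 9.89 with dilazep. It fell by 1.94 (SE 0.09), and its second probe by 2.34. The 3 abundant alpha-tubulins TUBA1A, TUBA1B and TUBA1C fell by 1.44, 1.27 and 1.59. TUBG1, the gamma-tubulin that seeds microtubules, fell by 1.79, whereas its relative TUBG2 rose by 1.16. TUBA3D fell by 1.97 and TUBA3E was at least 4.58-fold lower, but TUBA3 copies are near-identical.

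Genes of the folate cycle and of purine synthesis fell in 19 of 29 cases and rose in 3 (median -0.57). PFAS, an enzyme of the purine ring pathway, had levels of 10.21, 10.24, 10.42 and 10.41 in controls and 8.35, 8.26 and 8.32 with dilazep, so the groups lay 1.87 apart. PFAS fell by 2.01 (SE 0.09). The folate carrier SLC19A1 fell by 1.52, MTHFD1 by 1.17 and the adenine salvage enzyme gene APRT by 1.03.

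RNA-handling machinery fell as well. Of 43 genes of the RNA exosome, of mRNA decay and of the LSM family, 25 fell and 6 rose (median -0.33). The largest falls were those of the LSM ring subunits LSM3 (-1.82), LSM8 (-1.59) and LSM2 (-1.46) and of the exosome subunit EXOSC2 (-1.27). LSM3 was bright, at 13.12 to 13.35 in controls and 11.39 to 11.44 with dilazep. Of 31 subunits of RNA polymerases I, II and III, 16 fell and 3 rose (median -0.38), among them POLR1E (-1.29), POLR2D (-1.25) and POLR3K (-1.17). POLR3G gave -1.96 on its main probe and -0.33 on another, which was not called. Of 45 DEAD-box and DEAH-box helicases, 20 fell and 6 rose, with DDX39A, which takes part in splicing and export, at -1.64.

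Subunits that bring proteins into mitochondria fell in 19 of 35 cases and rose in 2 (median -0.33). TIMM21 fell by 1.23, TIMM8A by 1.16 and the outer pore gene TOMM40 by 1.00. The TCA cycle did not move as a block: 11 of 27 genes rose and 9 fell, and its median of 0.07 became -0.15 under median scaling. The 2 NADP-dependent isocitrate dehydrogenases went opposite ways. The cytosolic IDH1 rose by 1.12, from 12.66 to 12.72 in controls to 13.78 to 13.85, and the mitochondrial IDH2 fell by 1.44, from 9.95 to 10.20 to 8.63 to 8.71. Neither pair of groups overlapped. MPC1, of the mitochondrial pyruvate carrier, rose by 1.18 and pyruvate carboxylase (PC) by 1.04.

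Of 33 genes of SWI/SNF and other remodellers 15 fell and 4 rose, with ACTL6A at -0.78 and SMARCB1 at -0.61, the latter with a second probe at -0.25 that was not called. Of 58 histone deacetylases, demethylases and methyltransferases 17 fell and 9 rose, so 44.8% were called, beside 53.7% of all members. Under median scaling 21 fell and 3 rose. HDAC11 rose by 1.42. Notch genes fell in 11 of 17 cases and rose in 2 (median -0.45), including the ligands JAG2 (-0.91) and DLL3 (-0.81) and the target HEY1 (-0.80).

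Genes of membrane traffic rose far more often than they fell. Of 74 genes of endosomes, ESCRT complexes and retromer, 43 rose and 4 fell (median 0.40), of 47 RAB GTPases 24 rose and 4 fell (median 0.27), and of 36 genes of COPI and COPII vesicle coats 22 rose and 1 fell (median 0.38). Under median scaling the counts were 29 and 7, 17 and 5, and 14 and 3. Single changes were modest. VPS8, of the CORVET tethering complex, had levels of 6.89, 6.69, 6.67 and 6.96 in controls and 8.19, 8.45 and 8.46 with dilazep. It rose by 1.57 (SE 0.11) without overlap, and a second probe gave the same value. RAB4B, of early endosome recycling, rose by 1.78, RAB32, of lysosome-related organelles, by 1.70, the coat subunit COPG2 by 1.44 and COPB2 by 0.91. VPS54 rose by 1.11 on its main probe, while a second one gave -0.12 and was not called.

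Lipid enzymes rose in part. Of 24 genes of sphingolipid metabolism, 14 rose and 3 fell (median 0.43), with SPTSSA, a small subunit of the enzyme that starts the pathway, up by 1.51 and GBA2, a glucosylceramidase, up by 1.28. SPHK1, which makes sphingosine 1-phosphate, was at least 1.40-fold lower. Of 37 genes of glycerolipid synthesis and lipid droplets, 16 rose and 5 fell (median 0.29). LPIN1, the phosphatidate phosphatase lipin 1, had levels of 10.75, 10.90, 10.86 and 10.84 in controls and 12.88, 12.90 and 12.83 with dilazep, 1.94 apart, and rose by 2.03 (SE 0.09). It rose by 1.91 in LNCaP too. Of 37 genes of fatty acid oxidation and peroxisomes, 19 rose and 3 fell (median 0.23), with ACAA1 at 1.14 and ECI1 at 1.22. Under median scaling 12 of these 37 rose and 8 fell (median 0.05), and of the glycerolipid genes 14 rose and 7 fell (median 0.10).

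Glutathione enzymes had the highest median among lists of 14 or more members. Of 23 glutathione transferases, peroxidases and synthesis enzymes, 16 rose and 1 fell (median 0.72). GCLM, the modifier subunit of the first enzyme of glutathione synthesis, had levels of 8.72, 9.07, 9.27 and 8.45 in controls and 10.55, 10.78 and 10.82 with dilazep. The groups were 1.28 apart, and GCLM rose by 1.84 (SE 0.21, adjusted p = 1.5e-05), with a second probe at 1.41. GSTK1 rose by 1.61 and GSTA4 by 1.55. GPX8 rose by 1.99 on its main probe but gave -0.04 on another, which was not called. Among other enzymes of detoxification, ALDH3A2, which oxidises fatty aldehydes, rose by 1.86, and CYP1B1, a steroid and hydrocarbon hydroxylase, fell by 2.28.

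Genes of the EGF family and MAP kinase phosphatases mostly rose. HBEGF, a ligand of the EGF receptor, had levels of 5.97, 6.05, 6.05 and 5.75 in controls and 8.75, 8.66 and 8.59 with dilazep, without overlap, and rose by 2.71 (SE 0.12). The ligand gene TGFA rose by 1.14 and the receptor gene ERBB2 by 1.12, while EGFR fell by 0.75, with a second probe of EGFR at 0.18 that was not called. In all, 5 of 7 measured genes of that family rose and 1 fell. Of 14 MAP kinase phosphatase and Sprouty genes, 9 rose and 2 fell (median 0.57). DUSP1, whose promoter is printed above, had levels of 7.88, 8.02, 8.39 and 7.88 in controls and 10.35, 10.35 and 10.15 with dilazep, 1.75 apart. It rose by 2.24 (SE 0.15), against 0.31 in LNCaP, and the difference of 1.93 was called. SPRY1, which restrains receptor signalling, fell by 1.53.

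Transcription factor families were mixed. Kruppel-like factors rose in 5 of 8 cases and fell in 1, with KLF6 at 2.36 (SE 0.26), KLF2 at 2.11 and KLF15 at 1.71, whereas KLF4 fell by 0.78. Of 19 bZIP factors 7 rose and 5 fell (median 0.18), or 5 and 6 under median scaling (median 0.00). NFE2L1 rose by 1.23, and CEBPD, CEBPA and NFE2L3 fell by 1.87, 1.05 and 1.76. NFIL3, which represses clock genes, rose by 1.68 and PER2 fell by 1.29, with a second probe of PER2 at 0.17 that was not called. Of 326 C2H2 zinc finger genes 61 rose and 58 fell, so 36.5% were called, beside 53.7% of all members. Under median scaling 36 rose and 78 fell, and the median of 0.04 became -0.11.

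**Figure D3:**
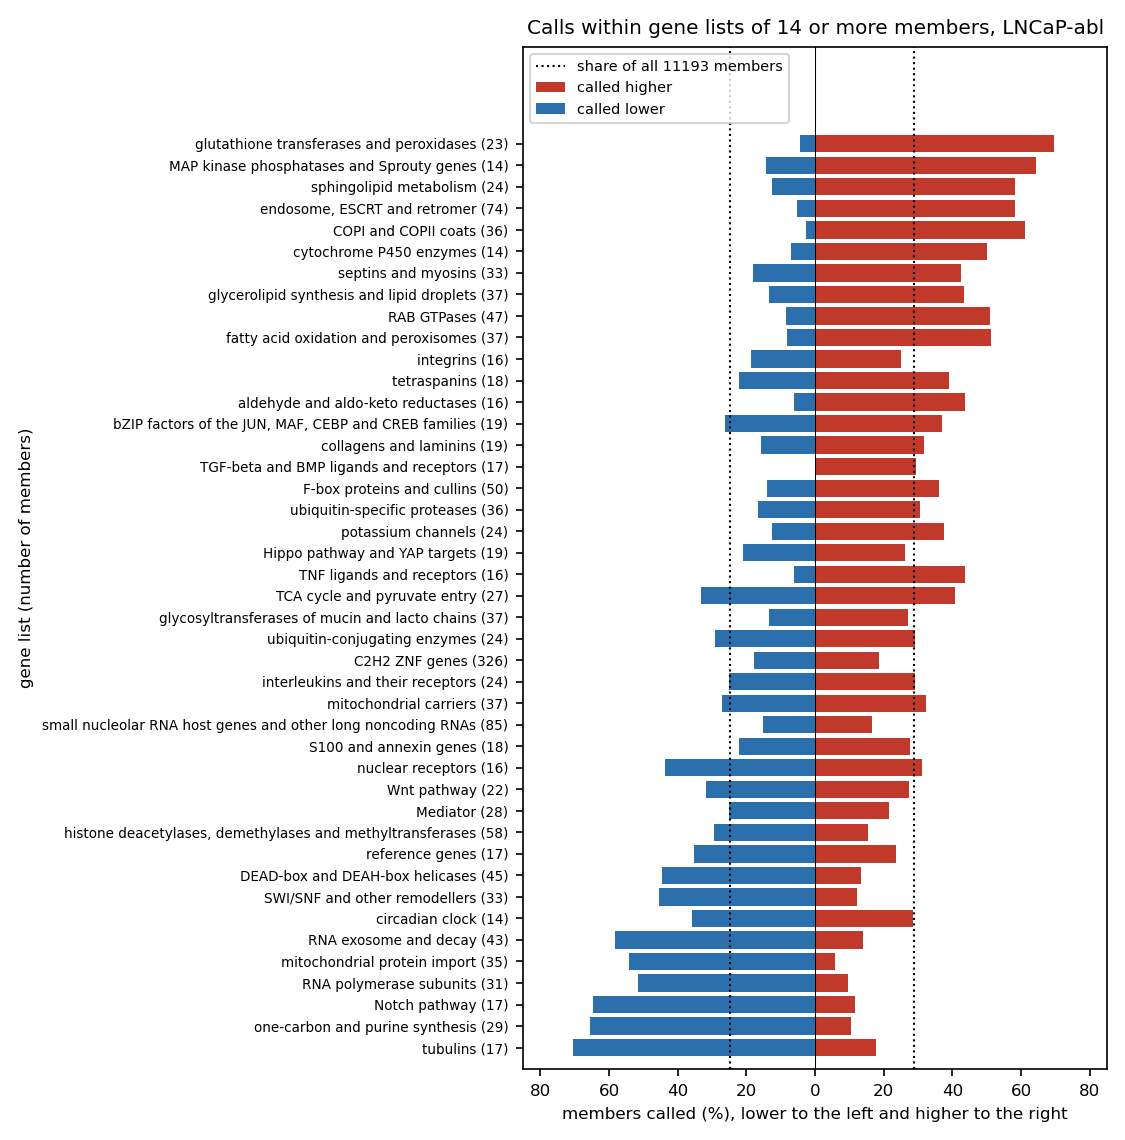
Share of the members of each gene list that were called higher (red, to the right) or lower (blue, to the left), in percent, for lists with 14 or more members ordered by median change, with dotted lines at the shares of all members (28.9% and 24.8%). Tubulins, one-carbon and purine genes and Notch genes lie at the falling end, and glutathione, MAP kinase phosphatase and sphingolipid genes at the rising end.

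Genes often used as loading controls were not all steady. Of 17 measured, 4 rose and 6 fell, or 4 and 9 under median scaling. With the main processing 58.8% of them were called, near the 53.7% of all members. ACTB changed by 0.06 (SE 0.07) and GAPDH by 0.06 (SE 0.08), neither called, and EEF1A1 by 0.12. B2M rose by 1.14, from 11.95 to 12.61 in controls to 13.16 to 13.55, and HPRT1 fell by 0.73, from 11.58 to 11.95 to 10.88 to 11.11, both without overlap. PGK1 fell by 0.60 and YWHAZ rose by 0.56, with a second probe of YWHAZ at 0.07 that was not called.

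Noncoding RNAs moved by class, and the genes named here were chosen after their values were seen. Of 131 small nucleolar RNAs (snoRNAs), which guide the chemical marking and cutting of ribosomal RNA, 66 fell and 9 rose, with a median of -0.46. Under median scaling 75 fell and 6 rose. SNORD96A had levels of 8.32, 8.32, 8.94 and 8.22 in controls and 6.16, 6.15 and 6.12 with dilazep. The groups lay 2.06 apart, and SNORD96A fell by 2.31 (SE 0.17, adjusted p = 3.4e-07). SNORD16 fell by 1.99, SNORD57 by 1.91, SNORD36A by 1.88 and SNORD80 by 1.37. The small Cajal body RNAs, relatives that act on spliceosomal RNAs, fell in 7 of 12 cases and rose in 1.

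Most snoRNAs are cut from the introns of other genes, and their positions were compared with their changes. By RefSeq spans, which here carry no strand, 107 of 143 small nucleolar and Cajal body RNAs lay within a gene that was also measured, and 53 of these fell and 5 rose. The 73 genes around them fell in 28 cases and rose in 11, with a median of -0.13. Of the 53 small RNAs that fell, 27 lay in a gene that fell, 23 in a gene that was not called and 3 in a gene that rose. SNORD57 lies in NOP56, which fell by 1.32. SNORD16 lies in RPL4 (-0.13), SNORD36A in RPL7A (-0.15) and SNORA3A (-1.57) in RPL27A (0.04), none of these ribosomal protein genes called. A snoRNA probe can also bind unspliced RNA of the gene around it, and these sources cannot be told apart here.

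A further 6 of these small RNAs lay in no other gene, and 4 of them rose. These were SNORD13 and the U3 copies SNORD3A, SNORD3C and SNORD3D, which are transcribed on their own. Of these, the U3 RNA acts in the cutting of ribosomal RNA. SNORD13 had levels of 6.58, 6.80, 6.63 and 6.62 in controls and 8.40, 8.19 and 8.44 with dilazep, without overlap, a rise of 1.69 (SE 0.17). SNORD3A rose by 1.39 and SNORD3D by 1.38, and SNORD3C was at least 2.19-fold higher, but the U3 copies are near-identical. SNORA50C (-0.64) and SNORD32B (-0.49) were the others, and both fell.

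**Figure D4:**
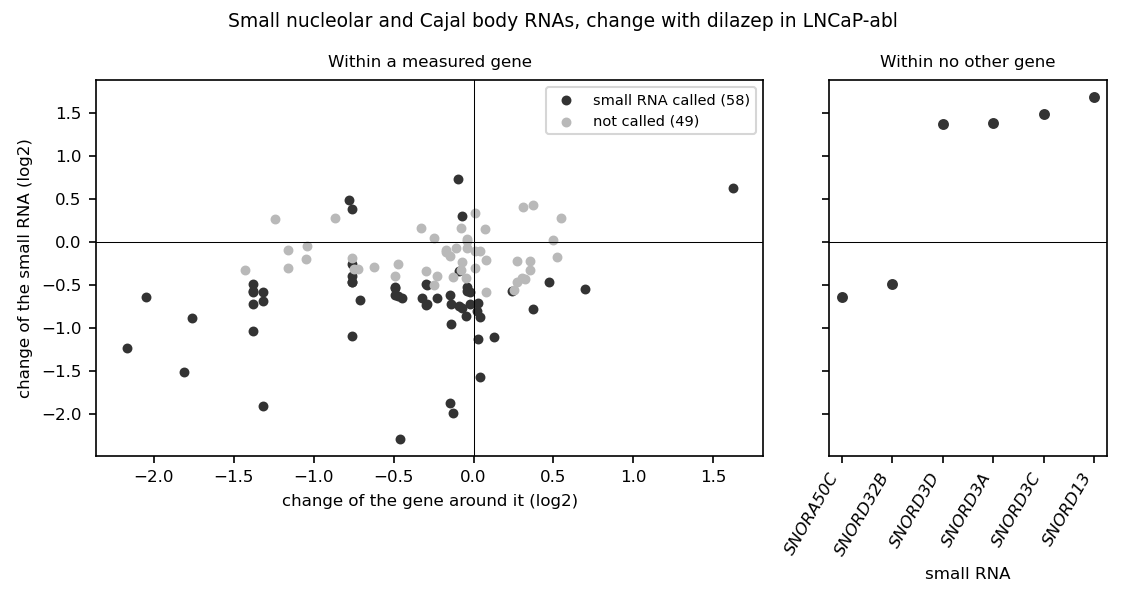
Change with dilazep (log2, vertical axes) of small nucleolar and Cajal body RNAs, on the left against the change of the measured gene whose span holds them (log2, horizontal axis; black called, grey not called) and on the right for the 6 that lie in no other gene. Black points below 0 spread over genes that fell and genes near 0, and the 4 highest points on the right are SNORD13 and the U3 copies at 1.38 to 1.69.

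Most other short structured RNAs measured rose. RN7SK, which holds the elongation factor P-TEFb inactive, went from 7.71 to 8.02 in controls to 9.24, 9.09 and 9.24, a rise of 1.33 (SE 0.24), without overlap. Of 4 Y RNAs 2 were called higher, RNY5 (1.48) among them, and of 3 vault RNAs 2 were, VTRNA1-1 (1.25) and VTRNA1-2 (1.01). The telomerase RNA was not called (-0.47). Of 13 small nuclear RNAs, 9 rose. SNAR-A1, a small RNA with many near-identical copies, was the 1 that fell (-2.01, SE 0.20). Probes for ribosomal RNA rose as well, RNA18SN5 by 1.74 (SE 0.47, adjusted p = 0.00817) and RNA28SN5 by 1.26 (SE 0.41, adjusted p = 0.0218), with control levels for RNA28SN5 spread from 8.10 to 9.14.

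Of 238 long noncoding RNAs 53 rose and 32 fell, so 35.7% were called, beside 54.7% of 10512 coding genes. The classes were not matched for level, with which the share of calls varied, and the difference was not tested. TYMSOS fell by 2.57, LINC00161 by 2.32 and the snoRNA host SNHG1 by 1.38, from 10.70 to 11.11 in controls to 9.43, 9.69 and 9.31. ATP2B1-AS1 rose by 1.49 and MIR99AHG by 1.18. The array does not measure mature miRNAs, so the 37 probes named for miRNA genes were left as counts, with 7 higher and 6 lower.

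Promoter letters were compared between classes of members, as a description. A promoter of 300 bases, from 250 before to 50 after the gene's start, was found for 9002 members (80.4%), of which 551 rose by 1 or more, 621 fell by 1 or more and 4111 were not called. The CHR stood in 25.3% of promoters of genes that fell by 1 or more and in 40.6% of the 197 that fell by 2 or more. It stood in 10.3% of promoters of genes not called, in 11.3% of those that rose by 1 or more and in 16.4% of all 35116 promoters in the table. An E2F site (TTTCCCGC, TTTCGCGC, TTTGCCGC or TTTGGCGC) stood in 17.8% of promoters of genes that fell by 2 or more, against 5.06% of those not called, 0 of 71 that rose by 2 or more and 3.31% of all promoters.

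The CCAAT box, a short and common motif, stood in 59.4% of promoters of genes that fell by 2 or more, against 35.4% of those not called and 34.6% of all promoters. A promoter with both a CCAAT box and a CHR, as printed above for HJURP, PSRC1 and CKS2, was found for 28.4% of genes that fell by 2 or more and for 4.93% of members. These motifs were searched on both strands, and none of the 3 contains another. As background, cell cycle promoters are known to hold them.

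Rarer motifs were counted in the same way, here for genes that rose or fell by 1 or more. The CLEAR element (TCACGTGA) stood in 4.17% of promoters of genes that rose, 1.13% of those that fell, 1.58% of those not called and 0.980% of all promoters. At 2 or more the shares were close, 2.82% of those that rose (2 of 71) and 2.54% of those that fell (5 of 197). The CLEAR element always contains an E-box (CACGTG), which stood in 66 of 551 promoters of genes that rose, 8.05% of those that fell, 9.95% of those not called and 7.26% of all promoters.

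The TATA box (TATAAA) stood in 9.62% of promoters of genes that rose, 7.25% of those that fell and 5.89% of those not called, but in 11.5% of all promoters. The AP-1 site stood in 4.54%, 1.77% and 2.89% of the same classes and in 4.95% of all promoters. The C/EBP-ATF element, present in S100P, stood in 3.09%, 1.77% and 1.87% and in 3.62% of all promoters. For these 3 motifs the share over all promoters was above that of genes that rose. The YY1 site (AAGATGGCG) stood in 1.27%, 2.42% and 4.33% of the same classes and in 1.75% of all promoters, and in 5.76% of genes called lower by less than 1. GATA sites (AGATAA or TGATAA) stood in 7.44%, 6.44% and 9.75% and in 16.3% of all promoters.

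**Figure D5:**
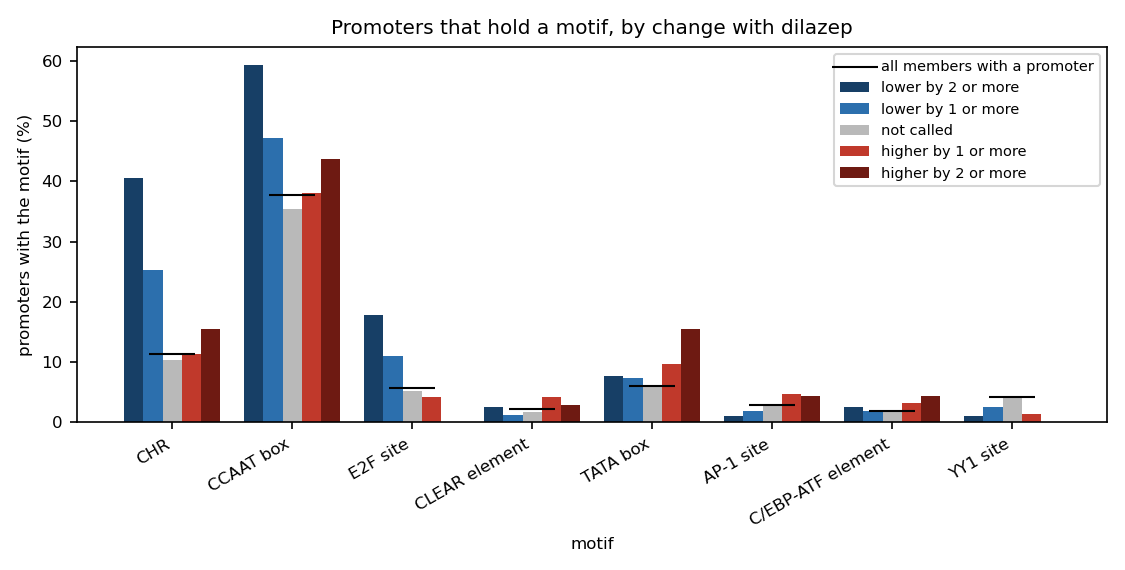
Share of promoters (300 bases, in percent) that hold each of 8 motifs, by class of change with dilazep, with a black line at the share over all members with a promoter. The CHR stands in 10.3% of genes not called and 40.6% of genes that fell by 2 or more, and the E2F site in 5.06% and 17.8%.

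The response of LNCaP-abl was set beside that of LNCaP with a test of the difference between them, in which the lines share no array. It was called in 3929 of the 11193 members, 1850 more positive and 2079 more negative in LNCaP-abl, and in 4056 of all 11983 genes tested (33.8%). Of 2705 members called in LNCaP-abl alone, 1572 differed by that test. Both lines were called in 3309 members, of which 2919 moved the same way and 390 in opposite directions (226 higher in LNCaP-abl and 164 lower). Over all genes tested, 391 (3.26%) were called in opposite directions.

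Genes higher in LNCaP-abl and lower in LNCaP included cystine and glutathione genes and a pair of TRIM genes. SLC7A11, the cystine importer, rose from 6.79 to 7.32 in controls to 9.64, 9.58 and 9.79, a rise of 2.60 (SE 0.19), against -0.95 in LNCaP. CTH, which makes cysteine from cystathionine, rose by 1.82 against -1.15, and CHAC1, which degrades glutathione, by 2.13 against -0.64. The other probes of CTH gave 1.04 and 0.66. TRIM49C (0.58 against -3.03) and TRIM51 (0.44 against -2.91) have near-identical relatives. In the opposite direction stood the globin gene HBQ1 (-1.97 against 0.88), the estrogen-binding receptor gene GPER1 (-1.69 against 1.14, with another probe at -0.09 that was not called), BARD1, the partner of BRCA1 (-1.19 against 0.86), and GPRIN2 (-1.04 against 0.87). FAM81A and RCCD1 were at least 3.34-fold and 2.49-fold lower in LNCaP-abl, whereas in LNCaP they rose by 0.38 and 0.40 on the log2 scale.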

How the data were processed

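Total RNA was labelled with biotin and hybridised to Illumina BeadChips, 1 colour per array. Per the file headers, the authors' non-normalized table gives each probe's linear intensity with its detection p-value. The other deposited table is on a log2-like scale, made with lumi per the submitters' processing notes. Its exact transform is not given in the sources here, and its values were used as an alternative only. Array titles in the header tied columns to samples.

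The non-normalized table held 47323 distinct probes, but gene symbols were at hand only for the 22912 probes of the processed table. Of these, 16501 had 1 gene symbol. Of 24894 probes detected on 2 or more arrays, 15931 could be named and entered the tests. Intensities of all 14 arrays were background corrected (normexp with detection p-values), quantile normalized and log2 transformed with neqc (limma 3.58.1, R 4.3.3, offset 16). Probes with detection p under 0.05 on 2 or more arrays were kept, the brightest per gene. One mean per group (6 groups) was fitted with lmFit and eBayes, and calls were two-sided, at p under 0.05 after Benjamini-Hochberg adjustment across 11983 genes. The number of arrays limits precision. The fit was tested on simulated data.

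Named genes were the 15 largest changes each way outside the textbook lists, up to 4 per family list, 8 each way in the brightest 10%, 10 each way by bound of detection, 6 each way opposite between lines, up to 5 each way between vehicles, the reference genes and GATA2; noncoding RNAs were chosen after their values were seen. The members and lists were chosen with earlier results of these data known. Motif shares came from RefSeq promoters (GRCh38.p14), with Python 3.11.15. Alternatives were median scaling, no background correction, the deposited log2 values, the 7 arrays alone, stricter and no detection filters, mean probes, an intensity trend, each vehicle alone, a replicate block and leaving out each array.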

Additional observations from a re-analysis of the deposited data

Results flagged for a closer look

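The responses of the lines to dilazep differed by the test of the difference itself in 3929 members. Among genes called in both lines in opposite directions, the difference (LNCaP-abl minus LNCaP, log2) was 3.61 for TRIM49C, 3.55 for SLC7A11, 3.36 for TRIM51, 3.32 for GPX8, 2.97 for CTH and 2.78 for CHAC1. It was -2.85 for HBQ1, -2.83 for GPER1, -2.05 for BARD1 and -1.90 for GPRIN2. GPX8 and GPER1 each had another probe that was not called in LNCaP-abl, at -0.04 and -0.09. The fitted differences of FAM81A (-2.58) and RCCD1 (-1.94) are no measured sizes, since neither gene was above background on a dilazep array of LNCaP-abl. The lines were grown in different sera, which cannot be told apart from the lines.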

How the results depend on the processing

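Of 5951 values over 331 genes and 18 alternatives, 5813 kept their side of the threshold, 130 were no longer called and 8 became called. Among genes called with the main processing, 0 reversed. Changes of sign in genes not called, such as KRT18 (-0.03, and 0.01 against DMSO alone), were left out of that count. The count of 6014 called members ranged from 5237 (DMSO alone) to 6124 (intensity trend), and from 5410 to 5712 with each array left out in turn. With median scaling 2141 members were called higher, 431 of them by 1 or more, and 37.6% of calls were higher in place of 53.9%. Members called higher and lower by 1 or more numbered 278 and 396 without background correction and 201 and 315 with the authors' processed values, in place of 669 and 778; the cause was not tested. The share of fallen genes with a CHR was then 31.0% and 30.7%, in place of 25.3%. With the replicate block 6036 members were called. Deviations from the group mean correlated by -0.18 to 0.03 between same-numbered arrays. The 2 arrays of a vehicle group deviate as mirror images, so these correlations cannot settle whether the numbers pair arrays. No gene was called between vehicles under any alternative that was fitted.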
